A study of Drosophila melanogaster with 9 samples.

Results

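The thioester-containing proteins of Drosophila melanogaster are encoded by a small gene family of which 5 members were followed, Tep1, Tep2, Tep3, Tep4 and Mcr. They were matched by gene symbol in the deposited tables, which list 13215 genes and other features in all. Of the 5 genes, 3 (Tep2, Tep4 and Mcr) were listed in every table, Tep1 was listed in 2 tables and Tep3 in 1.

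As background, thioester-containing proteins are large proteins of the same superfamily as the vertebrate complement factors and the protease inhibitor alpha-2-macroglobulin. Most are secreted into the hemolymph, where a reactive thioester bond can attach the protein to a microbial surface, and the bound protein can act as an opsonin, which marks a particle for uptake by phagocytes. In flies they are made mainly by hemocytes, the insect blood cells, and by the fat body, and JAK/STAT and Toll signalling are known to control some of them. Mcr (macroglobulin complement-related) lacks the cysteine needed for a thioester and is also a component of septate junctions, the occluding junctions of insect epithelia and of glia that enclose the nervous system.

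The study followed brain tumours of the larval central nervous system through serial transplantation, with 3 RNA-seq libraries in each of 3 groups and 9 libraries in total. In every group the tumour cells carried NΔecd, a Notch receptor without its extracellular domain that signals without ligand, together with nuclear GFP, both driven by an actin-Gal4 flip-out cassette that a heat shock switched on in random clones, so that all tumour cells shared the oncogene and the driver. N-FACS comprised live GFP-positive cells sorted by flow cytometry from dissociated brains of late larvae, 4 days after the heat shock, with 150 animals pooled for each replicate. N-T0 comprised whole tumour masses of the first allograft, grown for 8 to 10 days in the abdomen of adult female w1118 hosts, and N-T3 comprised masses of allograft 4 in the series, grown for 6 to 8 days, both with 25 hosts pooled for each replicate. The allograft masses were not sorted and could hold host cells, so that sorting, larval or adult surroundings, and tumour stage cannot be told apart in any comparison with N-FACS. The allograft groups differ from each other in allograft number, in growth time and in the graft, a brain lobe or tumour from an earlier host. These cannot be told apart either. The study's methods give about 10 days after injection for both groups. No control tissue without the oncogene was analysed here.

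The values come from 3 tables, each of which compares a pair of groups and gives for every feature a base mean, the mean normalised count over the 6 libraries of that pair. Since each group enters 2 of the tables, its level was solved from the 3 base means after the tables had been put on a common scale. The tables were normalised separately, hence every level below is set across tables. Values for single libraries were not used here, the depth of the libraries is unknown, and no spread between replicates, error or test could be given for any level or ratio. Ratios were computed over 8195 features that all 3 tables list and whose base mean reached 30 in at least 1 of them. A difference of at least 2-fold is called a difference here, as a rule of size and not of significance. The groups bore the markers of their labels in part. The neural stem cell gene mira was abundant in all groups, at solved levels between 39635 and 51832, and of the 6 neural stem cell markers 5 were within 2-fold of N-FACS in both allograft groups. The remaining one, the proneural gene ase, was lower there, at 2531 in N-FACS, 331 in N-T0 and 142 in N-T3. By contrast, all 6 neuron markers were at least 2-fold lower than N-FACS in both allograft groups. Of these, nSyb and brp were found almost exclusively in N-FACS (1667 and 1563, against no more than 36.0 in either allograft group). Others were partly kept, with elav at 3899 in N-FACS, 439 in N-T0 and 542 in N-T3, and futsch at 1591, 306 and 382.

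The base means alone set the members apart by abundance and by pattern. Tep4 had a base mean of 1018 normalised counts in the table of N-T0 with N-FACS, 1354 in that of N-T3 with N-FACS and 2106 in that of N-T3 with N-T0. It was thus highest where no N-FACS library entered the mean. Mcr gave 770.5, 793 and 714 in the same order of tables. Tep2 gave 71.6, 61.0 and 42.0 and was lowest where no N-FACS library entered. Tep1 had base means of 3.51 in the table of N-T0 with N-FACS and 2.98 in that of N-T3 with N-T0, and was not listed in the remaining table. Tep3 was listed once, at 2.45, in the table of N-T0 with N-FACS. No level per group could be solved for Tep1 and Tep3, so that 3 of the 5 members entered the ratios. The tables begin at base means between 1.10 and 1.49, and the absence of a gene from a table was not read as a count of 0.

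**Figure D1:**
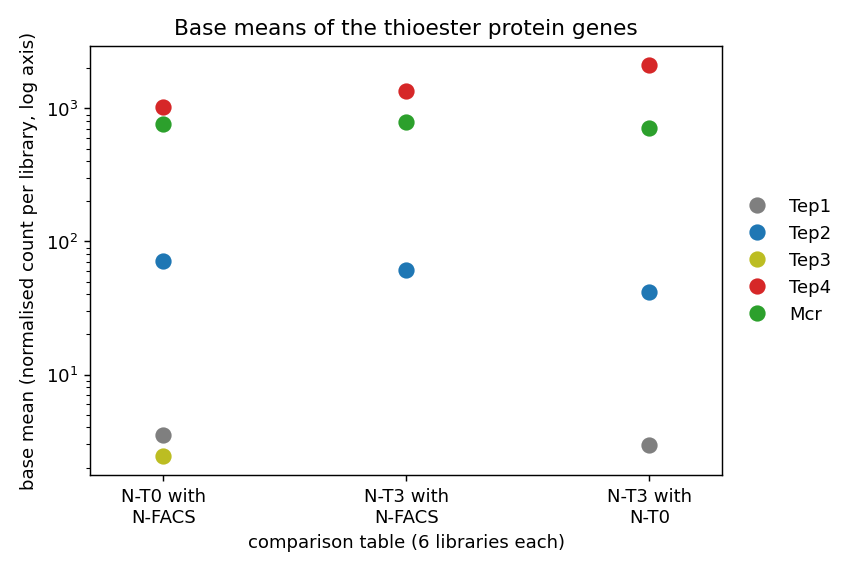
Base means of the 5 genes in the 3 comparison tables, as mean normalised counts over 6 libraries on a log axis, with 1 point per gene and table and no point where a gene was not listed. Tep4 stands highest in the table of N-T3 with N-T0 (2106), Tep2 stands lowest there (42.0), and Tep1 and Tep3 lie below 4.

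Tep4 encodes a secreted thioester protein that has been linked in flies to the response to bacterial infection. It was the member with the largest difference between the sorted primary cells and the allografts. Its solved level was 131 normalised counts in N-FACS, 1885 in N-T0 and 2471 in N-T3. The level in N-T0 was 14.4-fold that in N-FACS (3.85 on the log2 scale), and the level in N-T3 was 18.8-fold that in N-FACS (4.24). N-FACS thus held 5.31% of the highest level. This small value is a difference of large base means and moved with the scale, so that the folds are less certain than their direction. Without rescaling of the tables the N-FACS level was 266 and the ratios were 6.65 and 9.17. With the lowest scale that keeps every feature at or above 0 in N-FACS, chosen after the data had been seen, the N-FACS level was 87.9 and the ratios were 21.9 and 28.6. The base mean of N-T3 with N-T0 was also taken as a share of the sum of the other base means on the common scale. This share has a median of 49.7% over all features and would reach 100% for a gene absent from N-FACS. It holds the same difference in another form, so it moves with the scale as the folds do. For Tep4 this share was 94.3%, and 62 of the 8195 features had a higher one.

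Among all features, 11.3% were at least 2-fold higher and 12.9% at least 2-fold lower in N-T0 than in N-FACS. In N-T3 against N-FACS, 11.6% were higher and 13.2% lower by that rule. Of the 3 members that could be compared, 1 (Tep4) was higher and none lower in N-T0, and 1 (Tep4) was higher and 1 (Tep2) lower in N-T3. With 3 members, these counts are a description of single genes. The comparisons share the N-FACS libraries and are not independent of each other. In bulk RNA, more cells of a type and more RNA per cell cannot be told apart, for Tep4 or any other gene here.

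**Figure D2:**
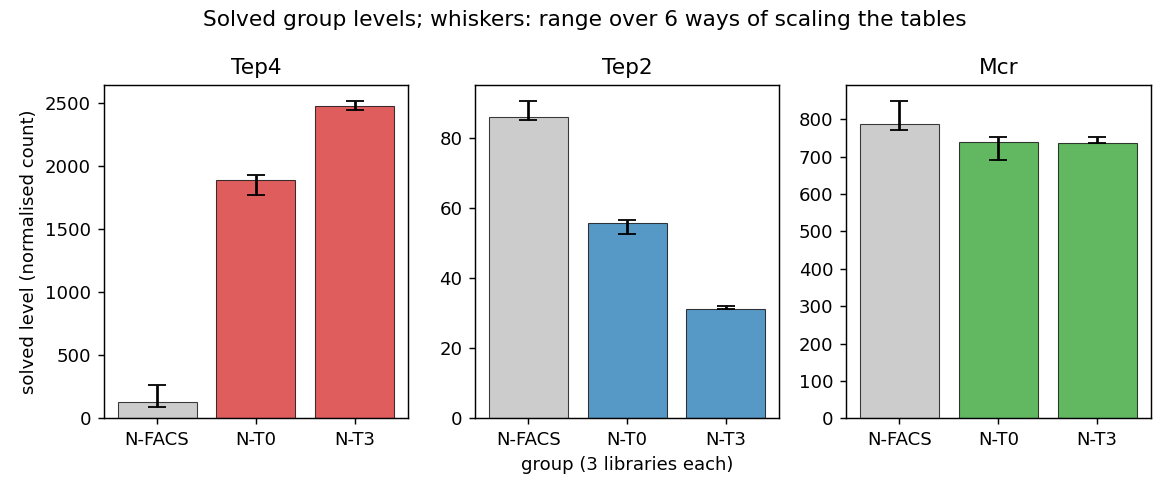
Solved levels of Tep4, Tep2 and Mcr in normalised counts (bars, axes from 0) in N-FACS, N-T0 and N-T3, 3 libraries each, where whiskers span the lowest and highest value over 6 ways of scaling the tables and are not a spread between replicates. Tep4 goes from 131 in N-FACS to 1885 and 2471 in the allografts, Tep2 from 86.1 to 55.7 and 31.2, and Mcr stays between 737 and 787.

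Between the allograft groups Tep4 differed much less. Its level in N-T3 was 1.31-fold that in N-T0, which is a difference of 586 normalised counts and 0.39 on the log2 scale. The log2 ratio stayed between 0.38 and 0.46 over the 6 ways of scaling. Of all features, 1.04% were at least 2-fold higher and 3.49% at least 2-fold lower in N-T3 than in N-T0, and none of the 3 members passed in either direction. Tep4 lay at percentile 92.9 of all features in this ratio.

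Tep2 encodes a thioester protein with several splice forms that differ in their central region, and its product takes part in the uptake of bacteria by fly phagocytes in culture. It had the opposite order of levels to Tep4. Its solved level was 86.1 normalised counts in N-FACS, 55.7 in N-T0 and 31.2 in N-T3. The N-T0 level was 0.647 of that in N-FACS (log2 ratio -0.63) and did not reach a 2-fold difference. The N-T3 level was 0.362 of that in N-FACS (log2 ratio -1.47). In N-T3 against N-T0 the ratio was 0.560 (log2 ratio -0.84), short of 2-fold, and it lay at percentile 4.42 of all features. The order of the groups was the same under each of the 6 ways of scaling, with ratios of N-T3 to N-FACS between 0.346 and 0.376. The low base means of Tep2 rest on few reads per library, and the counting error behind them could not be computed.

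Mcr showed no difference of that size in any comparison. Its solved level was 787 normalised counts in N-FACS, 739 in N-T0 and 737 in N-T3. The ratio of N-T0 to N-FACS was 0.939, that of N-T3 to N-FACS 0.937 and that of N-T3 to N-T0 0.998. Without rescaling of the tables the ratios to N-FACS were 0.813 and 0.866. The order of the Mcr levels in the allograft groups turned with the scale, with ratios between 0.993 and 1.07, and these neighbours cannot be ordered.

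**Figure D3:**
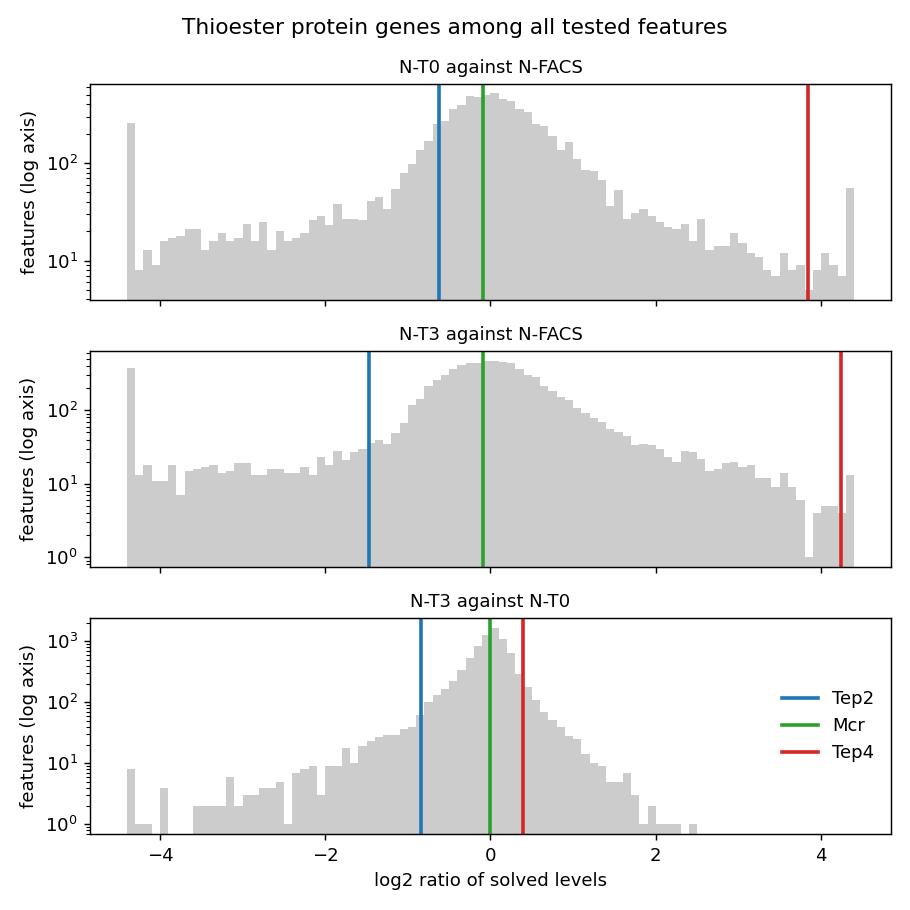
Distribution of the log2 ratio of solved levels over 8195 features (grey histograms, number of features on a log axis) for N-T0 against N-FACS, N-T3 against N-FACS and N-T3 against N-T0, with Tep2, Mcr and Tep4 as coloured lines. Levels under 5% of a feature's highest were set to 5%, which collects features in the outermost bins. Tep4 lies at 3.85 and 4.24 against N-FACS, Tep2 at -0.63 and -1.47, and Mcr near 0 in every comparison.

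The rank of the members among themselves changed between the groups when levels were set per kilobase of exon. In N-FACS, Mcr was highest at 125 normalised counts per kilobase, followed by Tep4 at 26.8 and Tep2 at 16.3. In N-T0, Tep4 was highest at 386 per kilobase, followed by Mcr at 117 and Tep2 at 10.5. The order in N-T3 was that of N-T0, with 505 for Tep4, 117 for Mcr and 5.90 for Tep2. The level of Tep4 per kilobase was thus 0.215 of that of Mcr in N-FACS, 3.29-fold that of Mcr in N-T0 and 4.32-fold in N-T3. By the level per kilobase over 8162 features with an annotated length, Tep4 moved from percentile 11.3 in N-FACS to 56.9 in N-T0 and 65.3 in N-T3. The N-FACS values of Tep4 moved with the scale here too. Without rescaling of the tables it had 54.4 per kilobase in N-FACS, 0.403 of the Mcr level and percentile 17.7, and with the lowest scale it had 18.0, 0.147 of the Mcr level and percentile 8.14. It lay below Mcr in N-FACS in each case. Mcr stayed between percentiles 28.1 and 30.4 and Tep2 between 7.22 and 8.11. None of the members was among the most abundant transcripts of any group.

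All 5 genes are protein coding and lie on chromosome 2L. Their positions are given here from Ensembl release 115 of the BDGP6.54 assembly, by gene identifier, and the authors had used BDGP6.32. Tep4 (FBgn0041180) lies at 19548507 to 19556451 on the plus strand, with 4 annotated transcripts and 4889 exon bases. Tep2 (FBgn0041182) lies at 7693727 to 7701601 on the minus strand, with 5 annotated transcripts and 5288 exon bases. Its reads were counted per gene, so the splice forms were not distinguished. Tep3 (FBgn0041181) lies beside it at 7702805 to 7710690 on the plus strand, 1203 bases from Tep2 and with no gene between them. These neighbours differed in level, since Tep2 had base means of 42.0 or more and Tep3 was listed once at 2.45. Mcr (FBgn0267488) lies at 8074117 to 8082982 on the minus strand, 363426 bases and 73 genes from Tep3. Tep1 (FBgn0041183) lies at 15888640 to 15893811 on the minus strand. Exons of genes on the opposite strand overlap those of Tep2 (CG43235, 95 bases), Tep3 (asRNA:CR44990, 1261 bases) and Mcr (asRNA:CR45257, 124 bases). Whether the counting used strand is not given in the sources used here, and reads in these stretches could belong to either gene. None of the 3 overlapping genes was listed in any table, and Tep1 and Tep4 have no such overlap.

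The listed phagocytic receptors and secreted recognition and clotting factors included many genes that were higher in the allografts, as Tep4 was. Among 9 secreted recognition and clotting factors that could be compared, 7 were at least 2-fold higher and 1 lower in N-T0 than in N-FACS, with a median log2 ratio of 3.21 against -0.02 for all features. In N-T3 against N-FACS, 6 were higher and 1 lower, with a median of 1.73. NimB2, a secreted Nimrod protein, had solved levels of 7.91 in N-FACS, 187 in N-T0 and 111 in N-T3. PGRP-SA, a secreted sensor of Gram-positive bacteria, had 2.62, 41.6 and 43.0. The member of the list that was lower was Tig (Tiggrin), an extracellular matrix protein, at 71.9, 26.2 and 19.8. These lists were drawn up with earlier results of the same data known.

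Among 7 phagocytic receptors, 4 were at least 2-fold higher and 2 lower in N-T0 than in N-FACS, and 3 were higher and 2 lower in N-T3. NimC4, a receptor for the engulfment of apoptotic cells, followed the order seen in Tep4, with solved levels of 34.9 in N-FACS, 237 in N-T0 and 345 in N-T3. Its ratio of N-T3 to N-T0 was 1.46, and it was the single receptor of the list at or above the ratio of Tep4. Sr-CI, a scavenger receptor, had 15.8, 171 and 66.5. The related receptor Sr-CII went the other way, with 84.8, 17.0 and 5.70, as did NimA with 191, 22.1 and 6.89. Of the receptors compared, NimC4 alone thus held the full order of Tep4, and Sr-CII and NimA held that of Tep2. The rest were highest in N-T0.

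The markers of hemocytes, a main source of thioester proteins in the fly, were higher in the unsorted allografts too. Of 11 markers, 10 were listed in every table, lz was listed in 2 tables, and none of the 10 had a solved level of 0 in any group. A level near 0, such as 0.41 for He and 0.63 for eater in N-FACS, is a remainder of subtraction and was not read as presence. The summed solved level of the 10 was 1030 in N-FACS, 3108 in N-T0 and 1888 in N-T3. The largest part in each group came from the receptor gene crq, with 597, 1378 and 953. Of the 8 that could be compared, 6 were at least 2-fold higher and none lower in N-T0 than in N-FACS, and 5 were higher and 1 lower in N-T3. Hml (hemolectin), a clotting factor of plasmatocytes, had 48.0, 797 and 469, and the plasmatocyte receptor NimC1 had 10.5, 293 and 187. The marker that was lower was Pxn (peroxidasin), a matrix enzyme, which had the order of Tep2 with 277, 181 and 89.2. NimC1, Sr-CI, crq and eater stand in the receptor list as well. From N-T0 to N-T3, the 8 markers had ratios between 0.303 and 0.691, with a median log2 ratio of -0.93, and 4 of them were at least 2-fold lower, whereas the ratio of Tep4 was 1.31. No hemocyte marker that could be compared was higher in N-T3 than in N-T0. The part that host or tumour-associated hemocytes have in the Tep4 level was not tested.

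The fat body is the other main source of these proteins. Of 8 markers of it, 6 were listed in every table. Lsp2 was not listed in any table, and the symbol plin1 was not matched to a gene. None of the 6 was at 0, and 4 were at least 2-fold higher and none lower in N-T0 than in N-FACS. Their summed solved level was 9289 in N-FACS, 15404 in N-T0 and 14119 in N-T3, most of it from FASN1, a fatty acid synthase with levels between 8960 and 13538. The yolk protein gene Yp1, which is expressed in the adult female fat body, had levels of 15.7 in N-FACS, 432 in N-T0 and 86.1 in N-T3. In N-T3 against N-T0, 5 of the 6 markers were at least 2-fold lower, with a median log2 ratio of -1.82. FASN1, at 1.04-fold, was the remaining marker. Here too Tep4 was higher in N-T3 while most markers were lower, and the part of fat body RNA in its level was not tested.

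**Figure D4:**
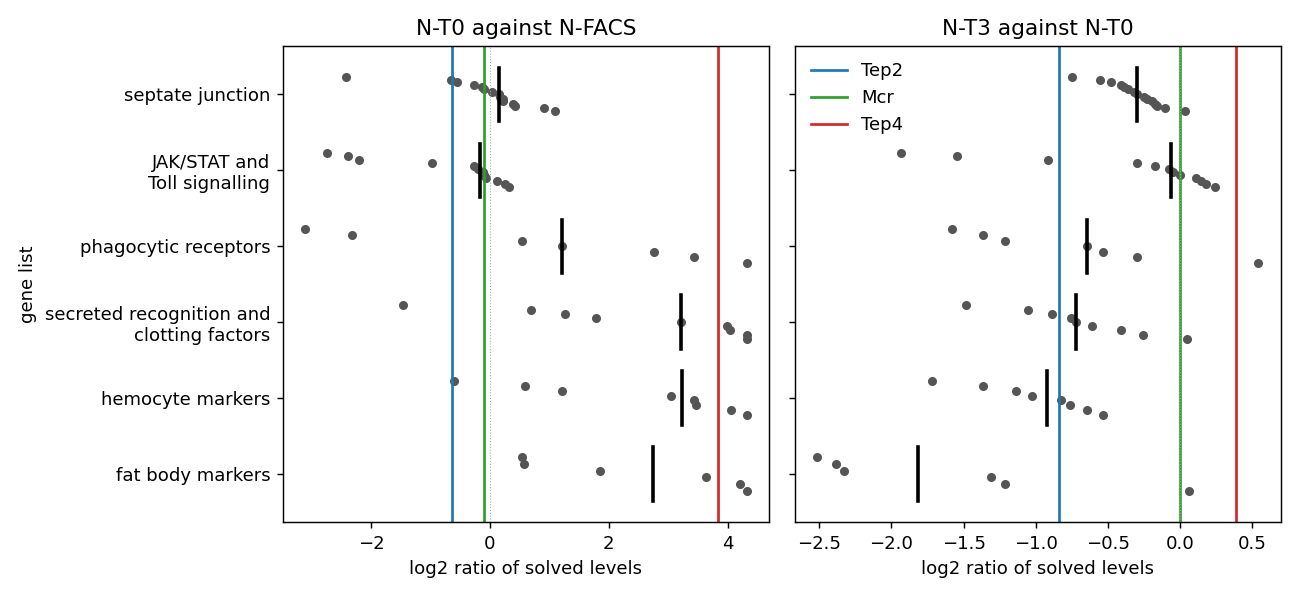
Log2 ratios of solved levels in N-T0 against N-FACS (left) and N-T3 against N-T0 (right) for the genes of 6 lists, where each grey point is a gene, black bars are list medians and coloured lines mark Tep2, Mcr and Tep4. On the left, Tep4 (3.85) lies among the hemocyte markers and secreted factors (medians 3.24 and 3.21). On the right, Tep4 (0.39) lies above all 8 hemocyte markers, the highest of which is at -0.53.

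The level of Mcr could be set beside those of 15 genes of the septate junction, all of which were compared. Of these, 1 was at least 2-fold higher and 1 lower in N-T0 than in N-FACS, with a median log2 ratio of 0.16. In N-T3 against N-FACS, none was higher and 1 was lower, with a median of -0.33, and between N-T3 and N-T0 none differed by that rule, with a median of -0.30. Tsf2 (transferrin 2), an iron-binding junction protein, had solved levels of 455 in N-FACS, 426 in N-T0 and 358 in N-T3. The claudin-like protein gene kune had 397, 406 and 377. The gene that was higher in N-T0 was cold, of the Ly6 family, with 106 in N-FACS and 227 in N-T0, and the gene lower in both allograft groups was vari, a scaffold protein gene, with 145, 27.0 and 20.6. Of the 15 genes, 14 were at a ratio below 1 in N-T3 against N-T0. Mcr, at 0.998, was near 1. Septate junctions also join glia, and of 6 glial markers 5 were at least 2-fold lower than N-FACS in both allograft groups, among them repo, a glial transcription factor gene, at 533, 5.37 and 0.51. Their summed solved level was 5609 in N-FACS, 5035 in N-T0 and 3434 in N-T3, most of it from nrv2, a sodium pump subunit gene that is also in the junction list. None of the 6 was at 0, although a level near 0, such as that of repo in N-T3, is a remainder of subtraction. The marker wrapper was listed in 2 tables, and the part of glial RNA in the Mcr level was not tested.

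The JAK/STAT and Toll pathways are known to act upstream of several thioester proteins. The JAK/STAT genes that could be compared all differed by less than 2-fold from N-FACS, while several Toll genes were lower. Of the 12 genes of both pathways that could be compared, none was at least 2-fold higher in either allograft group than in N-FACS. By that rule 3 were lower in N-T0 and 4 in N-T3. Of all features, 11.3% were higher and 12.9% lower in N-T0, and 11.6% were higher and 13.2% lower in N-T3. The JAK/STAT receptor gene dome had solved levels of 710 in N-FACS, 665 in N-T0 and 540.0 in N-T3, and the transcription factor gene Stat92E had 1185, 1139 and 1080. Socs36E, a feedback target of the pathway, had 1582, 1372 and 1619. The JAK/STAT ligand genes upd1, upd2 and upd3 were not among the 12. The gene upd1 was listed in 2 tables, and the base means of upd2 and upd3 were too low. Solved levels in N-FACS, N-T0 and N-T3 were 23.0, 1.95 and 2.69 for upd2. For upd3 they were 8.66, 5.49 and 2.38. Both were lower in the allograft groups, but at such low levels no difference was called. Among the 12, the genes that were lower belonged to Toll signalling. The ligand gene spz had 142, 21.2 and 7.28, the receptor gene Tl had 489, 93.3 and 17.7, and Dif, which encodes a transcription factor, had 176, 38.3 and 33.9. In N-T3 the related factor gene dl was also lower, at 21.9 against 80.9 in N-FACS. Of the other Toll pathway genes, Myd88 had 934, 1165 and 1320 and cact had 1007, 1100.3 and 1188, each under 2-fold. In N-T3 against N-T0, spz and Tl were at least 2-fold lower and none of the 12 was higher.

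The genes whose pattern over the 3 tables was closest to each member were sought among 7150 genes with a symbol and a base mean of at least 30 in all tables, by the distance between their log2 ratios of base means. The nearest to Tep4 was Ssl (distance 0.013), with solved levels of 6.30 in N-FACS, 94.6 in N-T0 and 125 in N-T3. It was followed by TotM, a stress-induced gene of the Turandot family, at a distance of 0.065 and levels of 4.84, 158 and 205, and by CG31279 at 0.070. Only 5 genes lay within 0.1 of Tep4. The nearest to Tep2 were sca (scabrous, a secreted glycoprotein of neural development) at 0.015, miple1 at 0.023 and CG4562 at 0.041, and 12 genes lay within 0.1. For Mcr, 947 genes lay within 0.1, headed by CG31898, TH1 and ksr, so that its pattern was that of a large share of all genes. Likeness was measured over 3 pooled values per gene.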

How the data were processed

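RNA-seq was available for 9 libraries, 3 each of N-FACS, N-T0 and N-T3. Per the labels and the study's methods, read quality was checked by the authors in FastQC 0.11.9. Alignment to the BDGP6.32 genome used STAR 2.7.5, and gene counts came from featureCounts 2.0.1. For each pair of groups the authors ran DESeq2 1.30.1 under R 4.0.2. The deposited tables give per feature a base mean, a score formed by the authors as the mean of counts divided by their size factors over 6 libraries. Log2 fold changes, standard errors, Wald statistics and p-values of the authors' comparisons fill the other columns and were not used here. Depth per library is unknown.

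Base means were brought to a common scale by the median ratio over 7283 features with at least 30 in all 3 tables. The level of a group was the sum of the base means of its 2 tables minus that of the remaining table. Before ratios were taken, levels under 5% of a feature's highest were set to 5%. A call was a ratio of at least 2-fold over 8195 features. The solution was run on simulated counts drawn from the solved levels, with changes of known size planted. Such a run could not check the common scale of the real data. Python 3.11.15 with numpy 2.4.6, pandas 2.3.3 and matplotlib 3.10.9 was used. Alternatives were the tables as deposited, other minima for the scale and for the background, other floors and other folds. A further scale, and its use for ratios without the floor, were chosen after seeing the data.

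All 5 members were named, together with genes of the lists that a result turned on and the 3 genes nearest in pattern to each member. The members and lists were chosen with earlier results of these data known. No sequence was printed.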

Additional observations from a re-analysis of the deposited data

How the results depend on the processing

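Tep4 was higher than N-FACS in both allograft groups, and Tep2 lower, under every alternative run. Over the 6 ways of scaling, with the floor of 5%, the log2 ratio of Tep4 ranged from 2.73 to 3.94 in N-T0 and from 3.20 to 4.32 in N-T3. The low ends came from the tables as deposited and the high ends from the lowest scale, which was chosen after seeing the data. The value of 4.32 is the limit that the floor sets. Without the floor, the fold of Tep4 on that scale reached 21.9 and 28.6. On the main scale, a floor of 10% gave log2 ratios of 2.93 and 3.32, and a floor of 2% left them as at 5%. The log2 ratio of Tep2 in N-T3 against N-FACS ranged from -1.53 to -1.41. With the tables as deposited, the N-FACS levels were 266 for Tep4, 90.7 for Tep2 and 849.9 for Mcr, and the N-T0 level of Mcr was 691. At a 1.5-fold limit, 1 member (Tep2) was lower in N-T0 than in N-FACS, as were 21.3% of all features. In N-T3 against N-T0, 1 member (Tep2) was lower at that limit, as were 7.79% of all features. At a 4-fold limit, 0 members were lower in N-T3 than in N-FACS, against 8.88% of all features. The share of all features that passed moved with the limit, from 11.3% higher in N-T0 than in N-FACS at 2-fold to 20.6% at 1.5-fold and 4.56% at 4-fold. In N-T3 against N-T0, 1.78% were higher with the tables as deposited, and the shares higher and lower were 2.09% and 5.55% with a background base mean of at least 10, and 0.602% and 1.83% with at least 100. No paired analysis was possible because values per library were not used here, and for the same reason no replicate could be left out. The precision of low levels, such as Tep4 in N-FACS and Tep2 throughout, is limited by the subtraction of larger base means and by an unknown depth.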
